A study of Drosophila melanogaster with 12 samples.

Results

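Toll and NF-kappaB signalling was followed through 10 genes of the 14323 in the deposited gene table: the recognition protein gene PGRP-SA, the serpin gene nec, the ligand gene spz, the receptor gene Tl, the cytoplasmic genes tub and pll, the inhibitor gene cact, and the NF-kappaB factor genes dl, Dif and Rel. They were taken by gene symbol, and all 10 were measured in each of 12 libraries of adult male accessory glands of Drosophila melanogaster, the prostate-like organ that makes seminal fluid. Each library pooled 80 to 100 glands dissected at day 10 from males kept at 25 °C and chosen for visible GFP, and each of 4 genotypes had 3 libraries.

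Every genotype, control included, was y,w and carried a heat shock flippase (hs-flp12), UAS-P35, an Act>CD2>gal4 flipout cassette and nuclear GFP under UAS, so that a heat shock of 20 min at 37 °C turned on UAS transgenes in cells that lost the cassette's stop. P35, a viral caspase inhibitor, was therefore present in all comparisons. Myc+E2f/Dp libraries added UAS-dMyc with UAS-E2F1 and UAS-Dp. Yki*+Dp libraries added UAS-Dp and a UAS-Yki transgene whose label names 3 positions, an activated mutant of Yorkie, the transcriptional coactivator that the Hippo pathway restrains, and their label also lists a UAS-E2F1. YkiWT libraries added UAS-yki, the wild-type form, and control libraries carried no further transgene. The actin promoter of the cassette is active in most tissues, the flipout reaches a varying share of cells, and each library is a mixture of epithelium with whatever muscle, nerve, duct or blood cells came along. Fewer cells of a type and less RNA per cell cannot be told apart in such bulk samples.

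In the Toll pathway of flies, pattern recognition proteins such as PGRP-SA, which binds bacterial peptidoglycan, start a cascade of serine proteases in the blood that ends by cleaving the cytokine Spätzle. Serpins such as Necrotic hold that cascade back. Cleaved Spätzle binds the receptor Toll, the adaptor Tube and the kinase Pelle relay the signal, and the inhibitor Cactus, an IkappaB, is destroyed, which frees the factors Dorsal and Dif to enter the nucleus, while Relish serves the related Imd pathway. Dorsal also patterns the dorsoventral axis of the embryo, and NF-kappaB factors drive antimicrobial peptide genes in the fat body.

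Expression values were TPM, the share of each library's transcripts corrected for transcript length, which can be compared between genes. They were multiplied by 1 factor per library, set by the median ratio over 6633 genes with at least 1 TPM everywhere, and are called scaled TPM. The factors were 0.645 to 0.776 in Myc+E2f/Dp, 0.928 to 0.989 in Yki*+Dp, 1.16 to 1.26 in YkiWT and 1.13 to 1.36 in control libraries, and TPM keeps no read depth. Fold changes are differences of log2(scaled TPM + 1), which understates the change of low genes, and a gene was called when its adjusted p in limma was below 0.05 and its log2 fold change was at least 1 in size. Nothing in the labels says whether the 3 libraries of a genotype came from separate crosses, so p-values measure the spread between these libraries.

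The transgenes followed the labels with 2 exceptions. Myc measured 80.8 to 150 scaled TPM in Myc+E2f/Dp libraries and 18.4 to 26.2 in the others, and Dp measured 480 to 935 in Myc+E2f/Dp and 1780 to 2365 in Yki*+Dp, against 25.9 to 29.7 in control. E2f1 measured 513 to 777 in Myc+E2f/Dp and was not raised in Yki*+Dp, whose label lists it, at 17.1 to 21.8, against 20.9 to 24 in control. The other exception was yki, at 94.4, 124 and 36.0 scaled TPM in Myc+E2f/Dp libraries, against 18.6 to 19.3 in control, although no yki transgene is in that label. Why was not tested. It measured 344 to 400 in Yki*+Dp and 97.7, 81.6 and 195 in YkiWT. Among cell type markers, the 8 genes of the gland's main cells were all measured, with summed levels of 43404 to 56479 scaled TPM in Myc+E2f/Dp, 56169 to 65355 in Yki*+Dp, 86047 to 97265 in YkiWT and 84825 to 108174 in control. The 9 muscle markers summed to 201 to 263 in Myc+E2f/Dp, 557 to 615 in Yki*+Dp, 531 to 627 in YkiWT and 459 to 555 in control, with 7 of the 9 called lower in Myc+E2f/Dp. The 8 markers of secondary cells, the other epithelial type, summed to 3076 to 3797 in Myc+E2f/Dp, 6793 to 8595 in Yki*+Dp, 7603 to 9612 in YkiWT and 10861 to 12039 in control. Of these 5 were called lower in Myc+E2f/Dp, as were 3 of the 8 main cell markers. The ejaculatory duct list also held the ejaculatory bulb protein genes Ebp, EbpII and EbpIII. Its 6 markers summed to 131 to 436 in Myc+E2f/Dp, 183 to 547 in Yki*+Dp, 801 to 1323 in YkiWT and 446 to 846 in control. Of those 6, 3 were called lower in Myc+E2f/Dp (Est-6, Dup99B and EbpIII) and 2 lower in Yki*+Dp (Est-6 and EbpIII). The 2 called higher in YkiWT were Ebp and EbpII, both bulb protein genes. The part of these mixtures in the results on the 10 genes was not tested.

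All 10 genes passed the filter of at least 1 TPM in 3 or more libraries. In Myc+E2f/Dp glands 2 of them rose against control, dl and spz, where 7.15% of the 8128 tested genes were called higher. In Yki*+Dp glands 3 rose, dl, nec and PGRP-SA, where 5.52% of all genes did. In YkiWT glands 2 rose, nec and PGRP-SA, where 1.88% of all genes did. No member fell past the thresholds in these comparisons, which share the same control libraries, where 5.94% of all genes fell in Myc+E2f/Dp glands, 1.46% in Yki*+Dp glands and 0.246% in YkiWT glands. The median log2 fold change of the 10 genes was 0.38 in Myc+E2f/Dp, 0.42 in Yki*+Dp and 0.09 in YkiWT, beside 0.05, -0.00 and 0.01 over all tested genes. At an adjusted p below 0.05 with no fold minimum, 6 members were higher and 1 lower in Myc+E2f/Dp, 8 higher and 2 lower in Yki*+Dp, and 3 higher and 1 lower in YkiWT. The share of all tested genes at that threshold, in either direction, was 64.9% in Myc+E2f/Dp glands, 39% in Yki*+Dp glands and 10.6% in YkiWT glands.

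**Figure D1:**
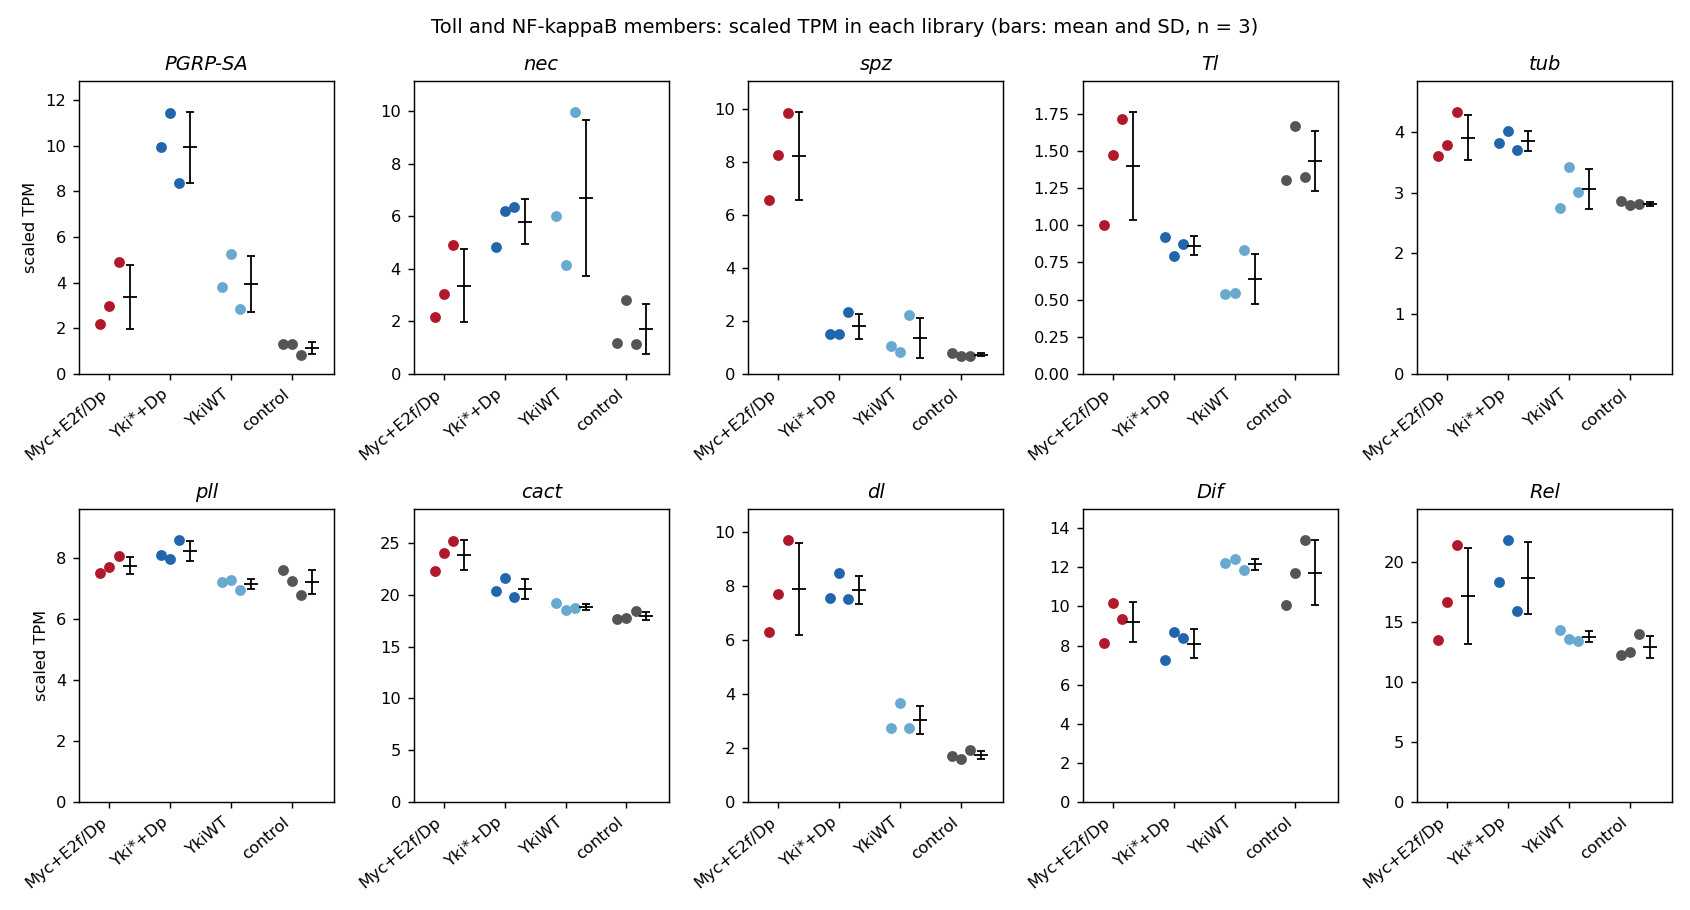
Scaled TPM of each of the 10 genes (vertical axes, 1 panel a gene) in the 3 libraries of Myc+E2f/Dp, Yki*+Dp, YkiWT and control, with the mean and SD beside the points. PGRP-SA stood highest in Yki*+Dp at 8.36 to 11.4, spz in Myc+E2f/Dp at 6.56 to 9.84, and dl at 6.29 to 9.69 in Myc+E2f/Dp and 7.52 to 8.45 in Yki*+Dp, against 1.59 to 1.90 in control.

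The scaling bears on all Myc+E2f/Dp comparisons. With TPM left as deposited, the median log2 fold change of all tested genes against control moved to 0.74 in Myc+E2f/Dp glands and to 0.30 in Yki*+Dp glands, and 2340 genes were called higher and 108 lower in Myc+E2f/Dp in place of 581 and 483. In Yki*+Dp 722 were then higher and 48 lower in place of 449 and 119. On those values 7 members passed in Myc+E2f/Dp, with Rel at 1.13, cact at 1.17, tub at 1.0, nec at 1.26 and PGRP-SA at 1.54 added to dl at 2.33 and spz at 2.98. Dif turned from -0.31 to 0.44 and Tl from -0.03 to 0.46, both uncalled and both under that median. The members called in Yki*+Dp and YkiWT were called on the deposited values too.

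PGRP-SA, the peptidoglycan recognition protein gene (X:11561643-11562779, plus strand, BDGP6.54), had 2.20, 2.98 and 4.92 scaled TPM in Myc+E2f/Dp libraries, 9.95, 11.4 and 8.36 in Yki*+Dp, 3.79, 5.26 and 2.83 in YkiWT, and 1.31, 1.30 and 0.849 in control. All libraries of the oncogene genotypes lay above the control libraries, and the Yki*+Dp libraries lay above all others. The rise was 2.34 ± 0.23 in log2 (SE) in Yki*+Dp (limma adjusted p = 1.8e-05) and 1.18 ± 0.23 in YkiWT (adjusted p = 0.00758). In Myc+E2f/Dp the difference was 0.98 ± 0.23 (adjusted p = 0.00292), just short of the fold minimum.

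The 2 transcripts of PGRP-SA start 292 bases apart and code for the same protein. The longer one, PGRP-SA-RA, had 4.38, 3.80 and 3.79 scaled TPM in Yki*+Dp, against 0.549, 0.467 and 0.189 in control, and rose by 1.84 (adjusted p = 1.6e-05). PGRP-SA-RB, which starts downstream, had 5.57, 7.63 and 4.58 in Yki*+Dp, against 0.760, 0.837 and 0.659 in control, and rose by 1.96 (adjusted p = 7.61e-05). In YkiWT glands PGRP-SA-RB rose by 1.18 (adjusted p = 0.00977), while PGRP-SA-RA, at 0.793, 1.31 and 0.654, differed by 0.45 (adjusted p = 0.146).

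The serpin gene nec (2R:7156477-7158241, minus strand), which encodes an inhibitor of proteases upstream of Spätzle, had 2.16, 3.03 and 4.90 scaled TPM in the Myc+E2f/Dp libraries, 4.82, 6.20 and 6.37 in the Yki*+Dp libraries, 6.01, 4.14 and 9.94 in YkiWT, and 1.17, 2.82 and 1.16 in control. Both Yorkie genotypes lay above every control library, and Myc+E2f/Dp overlapped the control range at the second control library, the highest of the 3. The rise was 1.37 ± 0.31 in Yki*+Dp (adjusted p = 0.00461) and 1.49 ± 0.31 in YkiWT (adjusted p = 0.0114). Without control replicate 1 the YkiWT value was 1.36 with an adjusted p of 0.0512, which misses the threshold. Myc+E2f/Dp differed from control by 0.69 (adjusted p = 0.0685).

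Hemocytes and fat body, the usual sources of such blood proteins, were checked beside these 2 genes. The 11 hemocyte markers summed to 22.0 to 32.0 scaled TPM in Myc+E2f/Dp, 39.5 to 51.1 in Yki*+Dp, 42.0 to 43.8 in YkiWT and 24.8 to 31.3 in control, so the Yorkie genotypes lay above control and Myc+E2f/Dp overlapped it. Hml, a clotting protein gene of hemocytes, averaged 1.02 ± 0.293, 1.70 ± 0.445, 1.75 ± 0.242 and 1.07 ± 0.321 in the same order (SD, n = 3 each). Of the 8 markers that passed the filter 1, the scavenger receptor gene crq, was called against control, at 1.21 in Yki*+Dp, and none of the 11 was at 0 throughout a genotype. The 10 fat body markers summed to 9.96 to 13.1 in Myc+E2f/Dp, 4.76 to 7.25 in Yki*+Dp, 4.36 to 7.09 in YkiWT and 2.47 to 5.01 in control, with 7, 8, 8 and 9 of the 10 below 1 in all libraries of those genotypes. Of the 2 fat body markers that passed the filter, FASN1 was called higher in Myc+E2f/Dp, and neither was called in the Yorkie genotypes. The part of these cells in the rise of PGRP-SA and nec was not tested.

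The ligand gene spz (3R:27064990-27070070, minus strand) was lowest of the 10 in control glands, and of the 3 comparisons with control it was called in that of Myc+E2f/Dp. It had 6.56, 8.26 and 9.84 scaled TPM in the Myc+E2f/Dp libraries, 1.52, 1.53 and 2.34 in the Yki*+Dp libraries, 1.07, 0.815 and 2.23 in YkiWT, and 0.794, 0.699 and 0.690 in control. The lowest Myc+E2f/Dp library held more spz than any library of the other genotypes. The rise was 2.40 ± 0.20 (adjusted p = 2.32e-06), and Yki*+Dp and YkiWT differed from control by 0.68 (adjusted p = 0.0201) and 0.41 (adjusted p = 0.238).

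Spätzle transcripts share 1 start and differ in the exons of the coding part, and 3 of the 8 in the table were called in Myc+E2f/Dp glands. spz-RB, of 900 coding bases, had 1.85, 2.27 and 1.98 scaled TPM in Myc+E2f/Dp, against 0.192, 0.239 and 0 in control (adjusted p = 3.98e-06). spz-RA, at 978 coding bases, had 1.19, 1.59 and 2.57, against 0.148, 0 and 0.160 (adjusted p = 0.000691), and spz-RL, at 810, had 0.900, 1.60 and 1.25, against 0, 0.0147 and 0.238 (adjusted p = 0.000159). All 3 reached 1 TPM in the Myc+E2f/Dp libraries and in no other. They entered the test by being high there, so their number and p-values are not read as support. Without Myc+E2f/Dp replicate 2, spz-RL was at 0.92, below the fold minimum. These transcripts share most of their bases, and how kallisto divided their reads is not shown in the tables.

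The receptor gene Tl (3R:26799041-26842403, plus strand) did not pass in any genotype. It had 1.0, 1.47 and 1.71 scaled TPM in the Myc+E2f/Dp libraries, 0.922, 0.795 and 0.875 in the Yki*+Dp libraries, 0.538, 0.542 and 0.837 in YkiWT, and 1.31, 1.67 and 1.32 in control. Both Yorkie genotypes lay below every control library, by -0.38 (adjusted p = 0.0276) and -0.57 (adjusted p = 0.0127), and Myc+E2f/Dp overlapped control at -0.03. The transcript Tl-RD, under the filter, had 0.125 to 0.232 in Myc+E2f/Dp and 0.425 to 0.585 in control, and was listed at 2.2e-06 or less in all Yki*+Dp and YkiWT libraries. Tl-RB had 0.397 to 0.461 in Yki*+Dp and 0.370 to 0.570 in control, with Tl-RC, of the same exons, given identical values in each library.

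**Figure D2:**
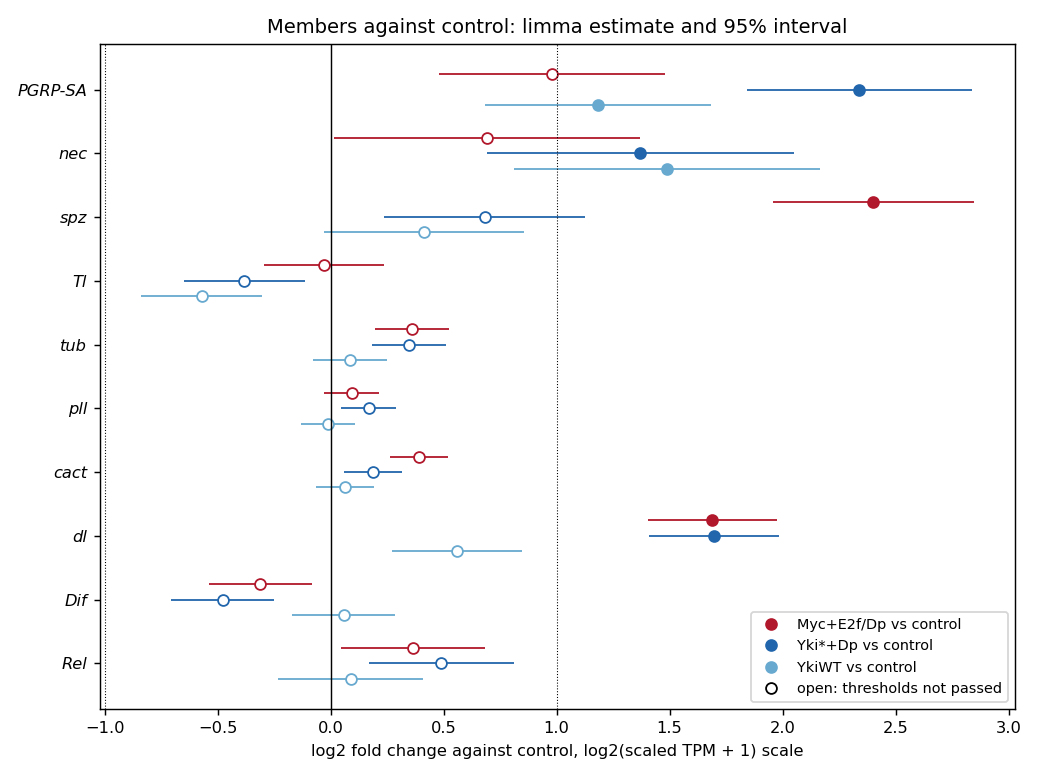
Log2 fold change against control (horizontal axis) of each member in Myc+E2f/Dp, Yki*+Dp and YkiWT, with the 95% interval from limma, filled where called. The interval of dl ran from 1.40 to 1.98 in Myc+E2f/Dp, 1.41 to 1.98 in Yki*+Dp and 0.27 to 0.84 in YkiWT, and tub, pll, cact, Dif, Rel and Tl lay between -0.57 and 0.49.

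None of the 3 genes that act between receptor and factors passed the fold minimum. tub, the adaptor gene (3R:4387742-4389813, plus strand), had 3.62, 3.80 and 4.33 scaled TPM in the Myc+E2f/Dp libraries, 3.83, 4.03 and 3.70 in the Yki*+Dp libraries, 2.76, 3.43 and 3.01 in YkiWT, and 2.86, 2.79 and 2.81 in control. Its differences from control were 0.36 (adjusted p = 0.00142) and 0.34 (adjusted p = 0.00364) in Myc+E2f/Dp and Yki*+Dp, with no overlap, and 0.09 in YkiWT. pll, the kinase gene (3R:27251131-27253182, minus strand), stayed between 6.81 and 8.60 in all 12 libraries, with differences of 0.09, 0.17 and -0.01 in Myc+E2f/Dp, Yki*+Dp and YkiWT. cact, the inhibitor gene (2L:16313036-16326207, minus strand) and the most abundant of the 10, had 22.3, 24 and 25.2 scaled TPM in the Myc+E2f/Dp libraries, 20.3, 21.6 and 19.8 in the Yki*+Dp libraries, 19.2, 18.5 and 18.7 in YkiWT, and 17.7, 17.8 and 18.4 in control. Its differences were 0.39 (adjusted p = 0.00016), 0.19 (adjusted p = 0.026) and 0.06 (adjusted p = 0.536).

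dl (2L:17436830-17450364, minus strand), the gene of the factor Dorsal, was called in Myc+E2f/Dp as well as in Yki*+Dp, which no other member was. It had 6.29, 7.70 and 9.69 scaled TPM in the Myc+E2f/Dp libraries, 7.55, 8.45 and 7.52 in the Yki*+Dp libraries, 2.74, 3.64 and 2.72 in YkiWT, and 1.69, 1.59 and 1.90 in control. Myc+E2f/Dp and Yki*+Dp overlapped each other and lay above YkiWT, which lay above control. The rise was 1.69 ± 0.13 in Myc+E2f/Dp (adjusted p = 1.23e-06) and 1.70 ± 0.13 in Yki*+Dp (adjusted p = 4.43e-06), and YkiWT differed by 0.56 ± 0.13 (adjusted p = 0.0204), under the fold minimum. The Myc+E2f/Dp library with the least yki, replicate 3, was the highest of that genotype in 9 of the 10 members, called or not. That library also had the lowest factor of the 12, 0.645, and the most genes at 1 TPM, 8120. Whether other genes also stood highest in it was not tested, and neither was the part of yki in the member levels.

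Dif, the gene of the Dorsal-related immunity factor, lies beside dl on the same strand (2L:17413248-17433161), 3668 bases apart with 2 annotated genes between them, and it was not called. It had 8.14, 10.2 and 9.36 scaled TPM in the Myc+E2f/Dp libraries, 7.25, 8.67 and 8.38 in the Yki*+Dp libraries, 12.2, 12.4 and 11.9 in YkiWT, and 10.1, 11.7 and 13.4 in control. Myc+E2f/Dp overlapped control and Yki*+Dp lay below it, with differences of -0.31 (adjusted p = 0.0206), -0.48 (adjusted p = 0.00364) and 0.06 in YkiWT. Rel (3R:9044183-9047977, minus strand), the gene of Relish, had 13.5, 16.6 and 21.4 in the Myc+E2f/Dp libraries, 18.3, 21.8 and 15.9 in the Yki*+Dp libraries, 14.3, 13.6 and 13.4 in YkiWT, and 12.2, 12.5 and 14.0 in control. Its differences were 0.36 (adjusted p = 0.0456), 0.49 (adjusted p = 0.0201) and 0.09, and none passed the fold minimum.

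Ratios of 2 genes within a library do not depend on the scaling. The level of dl relative to Dif was 0.772, 0.756 and 1.04 in the Myc+E2f/Dp libraries, 1.04, 0.975 and 0.897 in the Yki*+Dp libraries, 0.224, 0.293 and 0.229 in YkiWT, and 0.168, 0.136 and 0.142 in control. The level of dl exceeded that of Dif in 1 Myc+E2f/Dp and 1 Yki*+Dp library, and all ratios of both genotypes lay above those of YkiWT, which lay above those of control. Relative to cact, Dif had 0.387 ± 0.0326 in Myc+E2f/Dp, 0.394 ± 0.0344 in Yki*+Dp, 0.646 ± 0.0202 in YkiWT and 0.652 ± 0.0790 in control (SD, n = 3 each). The sum of dl and Dif relative to cact was 0.716 ± 0.0601, 0.775 ± 0.0412, 0.807 ± 0.0504 and 0.748 ± 0.0825 in the same order. The Myc+E2f/Dp libraries, at 0.646 to 0.755, lay below the YkiWT libraries, at 0.778 to 0.866, and every other pair of genotypes overlapped. With 3 libraries against 3, an exact permutation test could not pass below 0.10, and none was run on these ratios.

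Transcript values gave the members more detail, with 22 of their 36 annotated transcripts above the filter. In Myc+E2f/Dp glands 6 were called higher, where 6.47% of the 13045 tested transcripts were: dl-RA, Dif-RA, Rel-RC, spz-RA, spz-RB and spz-RL. All of these but dl-RA reached 1 TPM in the Myc+E2f/Dp libraries and in no other, so they entered the test by being high there and nothing is read from their number. In Yki*+Dp 5 were, dl-RA, dl-RE, nec-RA and both PGRP-SA transcripts, where 5.58% of all were, with dl-RE above the filter only through Yki*+Dp, and in YkiWT 2 were, nec-RA and PGRP-SA-RB, where 1.72% of all were. The nec-RA call in YkiWT was lost without control replicate 1 (adjusted p = 0.0629) or control replicate 3 (adjusted p = 0.0592).

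Transcripts of dl differ in where they start. dl-RA starts farthest upstream, and had 4.48, 5.38 and 6.75 scaled TPM in the Myc+E2f/Dp libraries, 3.19, 3.44 and 2.84 in the Yki*+Dp libraries, 1.42, 1.5 and 0.855 in YkiWT, and 0.753, 0.552 and 0.433 in control. It rose by 2.04 ± 0.15 in Myc+E2f/Dp (adjusted p = 1.2e-06) and 1.40 ± 0.15 in Yki*+Dp (adjusted p = 4.19e-05). dl-RE starts 1854 bases farther downstream and codes for the same protein, and had 0.589, 0.692 and 0.804 in the Myc+E2f/Dp libraries, 3.21, 3.55 and 3.30 in the Yki*+Dp libraries, 0.564, 1.19 and 0.949 in YkiWT, and 0.462, 0.457 and 0.590 in control. It rose by 1.53 ± 0.12 in Yki*+Dp (adjusted p = 5.68e-06) and differed by 0.17 (adjusted p = 0.246) in Myc+E2f/Dp, where the libraries overlapped control. dl-RE was above the filter only through Yki*+Dp, so its call there is not read as support. As a share of all dl TPM, dl-RE took 8.88% ± 0.536 in Myc+E2f/Dp, 42.8% ± 0.953 in Yki*+Dp, 29.4% ± 7.69 in YkiWT and 29.1% ± 1.86 in control (SD, n = 3 each). The 3 Myc+E2f/Dp libraries lay below, and the 3 Yki*+Dp libraries above, every control library in that share.

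dl also has a long coding form, dl-RC and dl-RF, of 2997 coding bases in place of 2031, with another end. It made up 20.8% ± 1.27 of dl TPM in Myc+E2f/Dp, 17.0% ± 1.54 in Yki*+Dp, 29.0% ± 4.12 in YkiWT and 36.9% ± 9.11 in control. The ranges of Myc+E2f/Dp and Yki*+Dp lay below the control range of 27.9% to 46.1%. That fall was in share. dl-RC averaged 1.56 scaled TPM in Myc+E2f/Dp, 0.863 in Yki*+Dp, 0.592 in YkiWT and 0.409 in control. Its libraries in Myc+E2f/Dp and Yki*+Dp lay above those of control. dl-RF, under the filter, averaged 0.0934, 0.468, 0.278 and 0.235 in the same order. dl-RC was above the filter only through Myc+E2f/Dp, so no p-value is given for it.

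**Figure D3:**
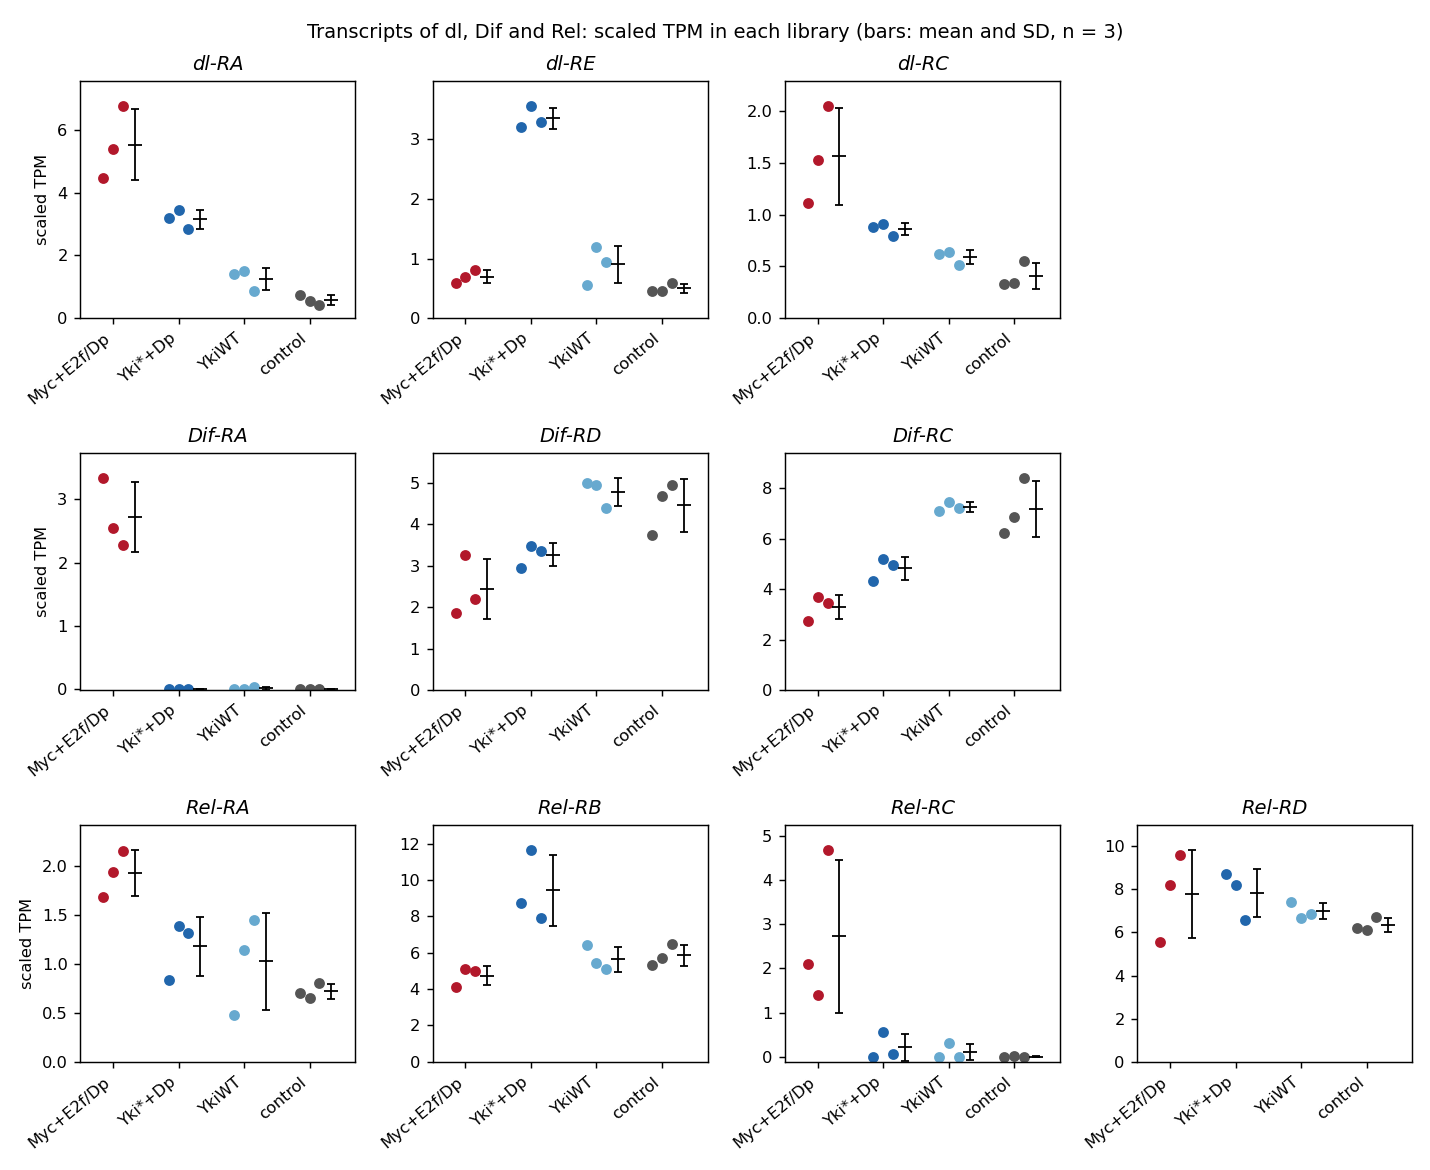
Scaled TPM (vertical axes) of 10 transcripts of dl, Dif and Rel in the 3 libraries of each genotype, with mean and SD. dl-RE had 0.589 to 0.804 in Myc+E2f/Dp libraries and 3.21 to 3.55 in Yki*+Dp libraries, and Dif-RA and Rel-RC stood clear of 0 in all 3 Myc+E2f/Dp libraries.

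Dif was not called as a gene, and 1 of its transcripts was. Dif-RA was listed at 0 in all Yki*+Dp and control libraries and at 0, 0 and 0.0423 scaled TPM in YkiWT, and had 3.34, 2.54 and 2.28 in Myc+E2f/Dp (adjusted p = 2.21e-07 against control). Dif-RA entered the test by being high in Myc+E2f/Dp, so its call is not read as support. Dif-RC, the long coding form of 2961 coding bases in place of 2001, had 2.75, 3.69 and 3.43 in the Myc+E2f/Dp libraries, 4.31, 5.20 and 4.97 in the Yki*+Dp libraries, 7.08, 7.47 and 7.20 in YkiWT, and 6.23, 6.85 and 8.39 in control. Myc+E2f/Dp lay below Yki*+Dp, which lay below control, by -0.92 (adjusted p = 5.05e-05) and -0.48 (adjusted p = 0.00703) against control, both under the fold minimum. As a share of Dif TPM, Dif-RC took 35.6% ± 1.59 in Myc+E2f/Dp, 59.6% ± 0.380 in Yki*+Dp, 59.6% ± 1.43 in YkiWT and 61.0% ± 2.25 in control.

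Dif-RA, Dif-RB and Dif-RD share 252 exon bases with CG15141 on the opposite strand, and Dif-RC does not. CG15141 had 10.2, 11.2 and 12 scaled TPM in the Myc+E2f/Dp libraries, 2.86, 3.53 and 3.40 in the Yki*+Dp libraries, 4.06, 3.64 and 3.74 in YkiWT, and 3.38, 3.58 and 3.98 in control. It was thus also highest where Dif-RA appeared, and Dif-RD, with the same overlap, was lower there, at 1.85, 3.25 and 2.20 in Myc+E2f/Dp against 3.73, 4.68 and 4.93 in control (-0.68, adjusted p = 0.00183). The library kit keeps strand, the strand option of kallisto is not given in the sources used here, and the part of CG15141 reads in the Dif values was not tested. The same holds for fzy, which shares 62 bases with cact-RB and had 4.37 to 6.16 in Myc+E2f/Dp and 0.0226 to 0.122 in control, and for pll and spz, which share 31 and 5 bases with TfIIA-L and CG43935.

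Relish transcripts start at 4 sites within 777 bases. Rel-RC, from the third of them, had 2.10, 1.39 and 4.69 scaled TPM in the Myc+E2f/Dp libraries, 0.00285, 0.570 and 0.0565 in the Yki*+Dp libraries, at most 0.322 in YkiWT and at most 0.0068 in control, and rose in Myc+E2f/Dp (adjusted p = 0.000279). Rel-RC entered the test by being high in Myc+E2f/Dp, so its call is not read as support. It took 15.3% ± 6.76 of Rel TPM in the Myc+E2f/Dp libraries and 0.996% ± 1.41 in the Yki*+Dp libraries. Rel-RB, which starts 309 bases upstream of it and codes for the same protein, had 4.12, 5.08 and 4.98 in the Myc+E2f/Dp libraries, 8.72, 11.6 and 7.92 in the Yki*+Dp libraries, 6.40, 5.41 and 5.10 in YkiWT, and 5.33, 5.73 and 6.48 in control. Yki*+Dp lay above control by 0.59 (adjusted p = 0.00547), under the fold minimum. Rel-RD, of 2577 coding bases in place of 2913, took 45.1% of Rel TPM in Myc+E2f/Dp, 42.2% in Yki*+Dp, 50.8% in YkiWT and 49.1% in control. It differed from control by 0.23 (adjusted p = 0.221) in Myc+E2f/Dp and 0.26 (adjusted p = 0.228) in Yki*+Dp. Rel-RA differed by 0.77 (adjusted p = 0.00308) in Myc+E2f/Dp, under the fold minimum, and by 0.33 (adjusted p = 0.168) in Yki*+Dp.

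Set directly against each other, Myc+E2f/Dp and Yki*+Dp differed in 2 members, spz higher and PGRP-SA lower in Myc+E2f/Dp, where 10.5% of all genes were called in either direction. spz differed by 1.72 ± 0.20 (adjusted p = 3.1e-05) and PGRP-SA by -1.36 ± 0.23 (adjusted p = 0.000406), with no overlap between libraries. dl differed by -0.01, with a 95% interval of -0.29 to 0.28, and by 0.39 (adjusted p = 0.0673) with TPM as deposited. Among transcripts 7 were called, where 9.61% of all were in either direction: Dif-RA, Rel-RC, spz-RA and spz-RB higher in Myc+E2f/Dp, and dl-RE and both PGRP-SA transcripts lower. The 4 higher ones, and dl-RE, had passed the filter only through the genotype where they were high. dl-RE differed by -1.36 ± 0.12 (adjusted p = 5.14e-06). spz-RA was at 0.81 without Myc+E2f/Dp replicate 3 and at 0.83 without Yki*+Dp replicate 2, and PGRP-SA-RB at -0.85 without Myc+E2f/Dp replicate 1 and at -0.91 without Yki*+Dp replicate 2, all under the fold minimum.

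Between the Yorkie genotypes, dl and PGRP-SA were called higher in Yki*+Dp than in YkiWT, where 4.02% of all genes were called in either direction. dl differed by 1.14 ± 0.13 (adjusted p = 0.00015) and PGRP-SA by 1.16 ± 0.23 (adjusted p = 0.00339), while nec differed by -0.12, with an interval of -0.80 to 0.56. Without YkiWT replicate 3 the PGRP-SA difference was 0.98, below the fold minimum. Yki*+Dp libraries also held more yki than YkiWT libraries, and carried Dp.

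Other genes of the pathway were taken from lists by role. The first list held 25 genes for recognition and proteases upstream of Spätzle, with serpin genes and the melanization gene Sp7 among them. Its counts are therefore not of the cascade that cleaves Spätzle alone. Of the 25, 12 were tested, and 3 rose and 2 fell in Myc+E2f/Dp, 3 rose in Yki*+Dp and 1 rose in YkiWT. These and the list counts after them stand beside 7.15% of all genes higher and 5.94% lower in Myc+E2f/Dp glands, 5.52% and 1.46% in Yki*+Dp, and 1.88% and 0.246% in YkiWT. The 5 called in Myc+E2f/Dp were 3 without Myc+E2f/Dp replicate 3, and the 1 in YkiWT was 3 without control replicate 2, 2 without YkiWT replicate 1 or 2, and 2 with the replicate block. Spn27A, a serpin that restrains Toll activation in the embryo, was called in each. It averaged 8.87 ± 3.11 scaled TPM in Myc+E2f/Dp, 20.0 ± 6.93 in Yki*+Dp, 5.40 ± 0.835 in YkiWT and 1.49 ± 0.0511 in control (SD, n = 3 each), for rises of 1.94, 3.03 and 1.35. modSP, a protease gene at the head of the cascade, rose by 2.04 in Yki*+Dp, and the serpin gene Spn77Ba rose there by 1.77. ea, the gene of the protease Easter, which cleaves Spätzle in the embryo, had 0.879, 1.24 and 1.79 in Myc+E2f/Dp and at most 0.0288 in control. Without any 1 of the Myc+E2f/Dp libraries it was under the filter and not tested. Being 1 of the 3 that rose, it thus entered the test by being high there, and its call is not read as support. Sp7, a protease gene of the melanization cascade, rose by 2.24 in Myc+E2f/Dp. Spn42Dd, another serpin gene, and sphinx2, the gene of a protease-like protein, fell by 1.49 and by 1.03 in Myc+E2f/Dp. With TPM as deposited these 2 were at -0.67 and -0.21 and not called, and sphinx2 also lost its call without control replicate 1 or Myc+E2f/Dp replicate 3. The list's median was 0.08 in Myc+E2f/Dp, 0.40 in Yki*+Dp and 0.28 in YkiWT.

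Relatives of the ligand and the receptor gave few values. None of the 5 other Spätzle family genes and 1 of the 7 other Toll family receptor genes, Tollo, passed the filter. Tollo differed by 0.77 in Myc+E2f/Dp (adjusted p = 0.000248), under the fold minimum. Of 17 tested genes for cytoplasmic signalling and regulation of NF-kappaB factors, kay, the gene of the AP-1 subunit Fos, rose by 1.13 in Myc+E2f/Dp. The polarity kinase gene aPKC rose by 1.46 and Traf4 fell by 1.26 in Yki*+Dp. None of them was called in YkiWT. Without Myc+E2f/Dp replicate 3 kay was at 0.98, and with TPM as deposited 10 of the 17 were called higher in Myc+E2f/Dp, where the list median was 1.08 beside 0.74 over all genes.

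The Imd pathway, which senses other bacterial peptidoglycan and acts through Relish, had 21 tested genes, of which 1 rose in Myc+E2f/Dp (2 without Myc+E2f/Dp replicate 1), 4 in Yki*+Dp and 1 in YkiWT. The Myc+E2f/Dp count was near the share over all genes. All of those called encode peptidoglycan recognition proteins. PGRP-LB, an enzyme that degrades peptidoglycan, rose by 2.68 in Yki*+Dp, with 29.8, 30.9 and 22.8 scaled TPM against 3.45, 3.08 and 3.86 in control, and by 1.01 in YkiWT. The receptor gene PGRP-LC rose by 1.14 and PGRP-LA by 1.10 in Yki*+Dp, and PGRP-LF, a decoy of that receptor, rose by 1.37 in Myc+E2f/Dp glands and by 1.83 in Yki*+Dp glands. PGRP-LB in YkiWT sat at the fold minimum and lost its call without any 1 of the 3 control libraries, YkiWT replicate 1 or YkiWT replicate 2, and with the replicate block no gene of the list was called in YkiWT. PGRP-LA was at 0.95 without Yki*+Dp replicate 2. The list's median was 0.23 in Myc+E2f/Dp, 0.21 in Yki*+Dp and 0.05 in YkiWT, and 7 of the 21 were called higher in Myc+E2f/Dp with TPM as deposited.

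Of the genes that Toll and Imd signalling are known to drive in the fat body, 18 antimicrobial peptide and Bomanin genes were tested. In Myc+E2f/Dp none rose and 2 fell, in Yki*+Dp 8 rose and in YkiWT 3 rose. The 2 that fell, CecA1 by 1.09 and IM33 by 1.14, kept the call in 2 of the 6 fits with a library left out and were not called with TPM as deposited, at -0.36 and -0.43. Drs, the antifungal peptide gene Drosomycin, had 2.49, 4.65 and 18.1 scaled TPM in Yki*+Dp, 8.14, 12 and 10.1 in YkiWT and 0.582, 0.803 and 0.426 in control, and rose by 2.18 and 2.78. The Yki*+Dp libraries were far apart, and the Myc+E2f/Dp libraries, at 1.04, 3.45 and 3.73, were above control without passing, and passed with TPM as deposited, where Drs was the 1 gene of the list called in Myc+E2f/Dp. Mtk, the Metchnikowin gene, had 26.4, 2.09 and 12.8 in Yki*+Dp, against 0.160, 0 and 0 in control, and rose by 3.32, a value that depends on the pseudocount. The other genes that rose in Yki*+Dp were DptB by 2.92, BomS2 by 1.77, Dro by 1.67, BomS5 by 1.48, BomS3 by 1.40 and Dso1 by 1.10, and in YkiWT Dso1 rose by 1.34 and BomT3 by 1.19. BomS3, BomS5 and Dso1 lost the call in Yki*+Dp without control replicate 1 or Yki*+Dp replicate 2, which left 5 genes of the list called. BomS3 kept the call in 2 of the 6 fits, and BomS5 and Dso1 in 3 each. The others in Yki*+Dp kept it in all 6 fits. Dso1 in YkiWT kept it in 2 of 6. None of the 6 tested Dorsal targets of the embryo was called in any comparison with control.

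**Figure D4:**
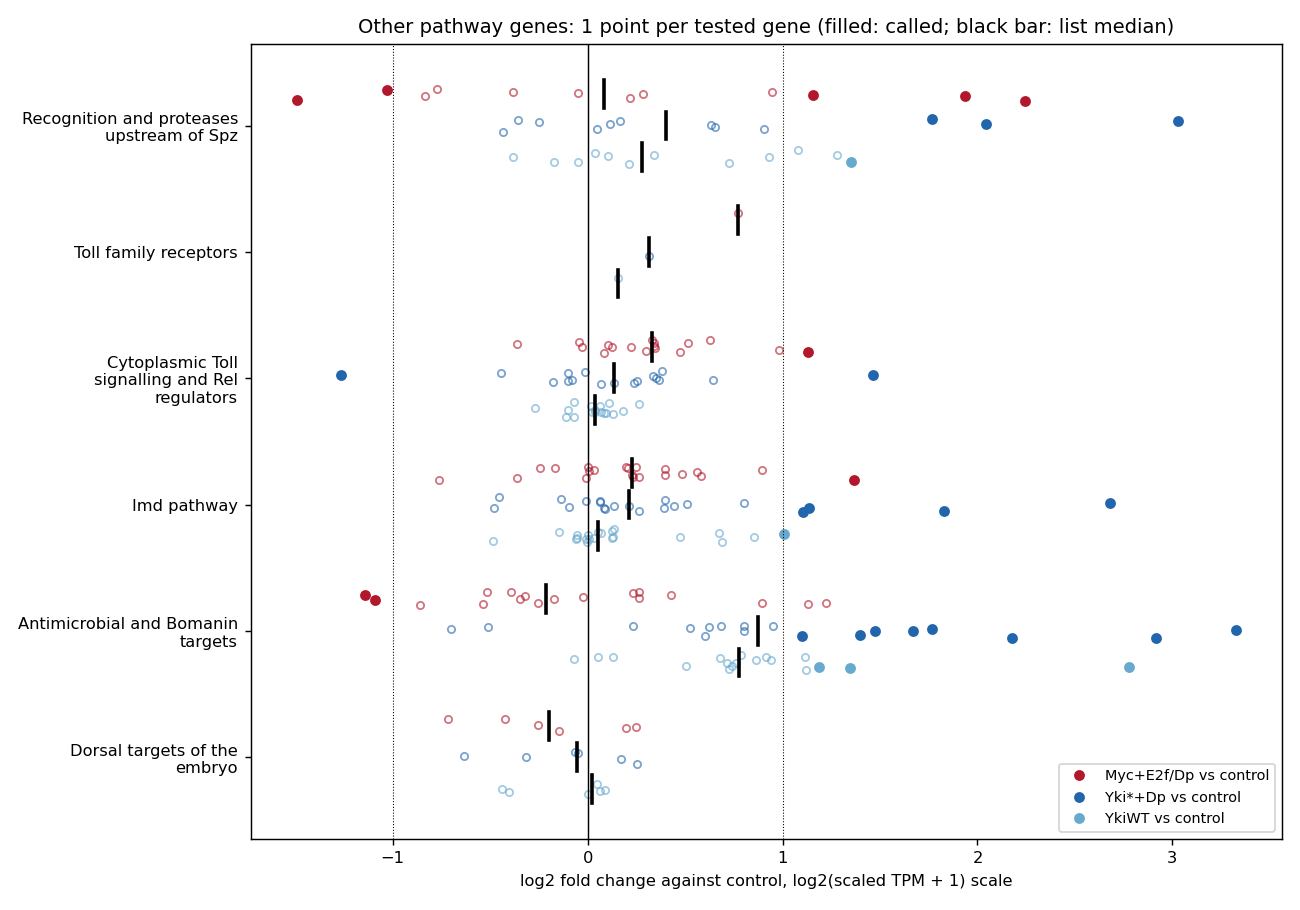
Log2 fold change against control (horizontal axis) of each tested gene in 6 lists of related genes, for Myc+E2f/Dp, Yki*+Dp and YkiWT, with called genes filled and the list median as a black bar. The antimicrobial and Bomanin list had its median at -0.21 in Myc+E2f/Dp (0.20 with TPM as deposited, where all genes were at 0.74), 0.88 in Yki*+Dp and 0.77 in YkiWT.

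Genes were also ranked by how closely their log2 level, centred on its mean over the 12 libraries, followed each called member. Nearest to dl were apt, CG31955 and rho-4, at root-mean-square differences of 0.17 to 0.18, where dl itself varied by 0.75. Nearest to spz were CG6845, CG14921 and CG11658, at 0.19 to 0.21. Nearest to PGRP-SA were Cyp4p1, CG8066 and CG1890, at 0.22 to 0.23, and nearest to nec were Tsp42El, vir-1 and Inx3, at 0.24 to 0.26. The 12 libraries share genotype and scaling, and these are descriptions without a test.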

How the data were processed

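RNA from 12 accessory gland libraries was measured, 3 for each of 4 genotypes, grouped by the genotype and replicate number of the labels. The authors selected poly-A RNA with a stranded kit, trimmed reads with cutadapt 1.18, assigned them to Ensembl BDGP6.28 transcripts with kallisto, and deposited TPM per transcript and per gene. TPM has the same total in every library, so depth is unknown, no counting interval can be given, and precision rests on 3 libraries a group.

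Here library factors came from medians of ratios over 6633 genes, a pseudocount of 1 was added and log2 taken. Genes (8128 of 14323) and transcripts (13045 of 31089) reaching 1 TPM in 3 libraries were fitted over all 12 libraries with limma 3.58.1 in R 4.3.3 (intensity trend), with Benjamini-Hochberg adjustment over all tested features in each comparison. The thresholds are those of the study's methods. The model was tested on simulated data. Comparisons were each oncogene genotype with control, Myc+E2f/Dp with Yki*+Dp, and Yki*+Dp with YkiWT. Alternatives were other scalings, pseudocounts and filters, fits of the compared groups alone, a replicate block, no trend, and each library left out. The authors' sleuth test needs kallisto's resampled values and was not used.

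The members, lists and tests were chosen with earlier results of these data known. By rule the text describes all members, list genes called against control, and the 3 genes most like each called member. Coordinates are Ensembl BDGP6.54 (release 115), and 36 of 36 member transcripts matched by ID. Their sequences were not analysed here. The series' design text gives heat shock on the day of eclosion, and elsewhere the study gives a later time. The study describes E2F1 as no longer efficiently induced in the Yki*+Dp line. Figures used matplotlib 3.10.9.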

Additional observations from a re-analysis of the deposited data

Results flagged for a closer look

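Responses to different oncogenes differed by the direct comparison of genotypes in 4 gene values, all on the log2(scaled TPM + 1) scale. Myc+E2f/Dp against Yki*+Dp gave 1.72 for spz and -1.36 for PGRP-SA, and Yki*+Dp against YkiWT gave 1.14 for dl and 1.16 for PGRP-SA. In transcripts, Myc+E2f/Dp against Yki*+Dp gave 1.55 for Rel-RC and 1.24 for spz-RB, 1.02 for spz-RA, -1.07 for PGRP-SA-RB and -1.31 for PGRP-SA-RA. dl-RE gave -1.36 in that comparison while dl as a whole gave -0.01. Dif-RA, listed at 0 in all Yki*+Dp libraries, gave a fitted difference of 1.88, which depends on the pseudocount. Rel-RC, spz-RA, spz-RB, Dif-RA and dl-RE entered the test only through the genotype where they were high. Their calls are not read as support. With a library left out, spz-RA and PGRP-SA-RB kept the call in 4 of 6 fits. Without YkiWT replicate 3, PGRP-SA was at 0.98 in Yki*+Dp against YkiWT. Groups of 3 libraries are too small for a test of outlying samples.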

How the results depend on the processing

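Over 740 refits of a member in a comparison, 724 stayed on the same side of the thresholds, 2 lost the call, 14 gained it and none of the called values reversed. Uncalled values changed sign in 23. Most of the refits were of uncalled values, some of them, such as those of pll, far under the fold minimum. All drew on the same libraries. The 724 therefore says little about how stable the calls are. The members called in Myc+E2f/Dp went to 7 with TPM as deposited. PGRP-SA in Myc+E2f/Dp, at 0.98, was past the fold minimum in 8 of 15 alternatives, among them 75th percentile scaling (1.07). The member transcripts called in Myc+E2f/Dp numbered 14 with TPM as deposited, 12 and 10 with pseudocounts of 0.1 and 0.5, and 1 with a filter at 5 TPM, which tests fewer. In Yki*+Dp that filter left 3, and in YkiWT no filter left 1, of which the cause was not tested.

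With 1 library left out, members called ran from 2 to 3 in Myc+E2f/Dp, stayed at 3 in Yki*+Dp, and ran from 1 to 2 in YkiWT (1 without control replicate 1), 2 to 2 in Myc+E2f/Dp against Yki*+Dp, and 1 to 2 in Yki*+Dp against YkiWT (1 without YkiWT replicate 3). Member transcripts ran from 1 to 7 in Myc+E2f/Dp, 5 to 5 in Yki*+Dp, 1 to 2 in YkiWT (1 without control replicate 1 or 3), and 2 to 7 in Myc+E2f/Dp against Yki*+Dp (2 without Myc+E2f/Dp replicate 1, 3 without replicate 2 or 3). A filter at 5 TPM left 1 in that comparison. The 1 or 2 transcripts left against control without a Myc+E2f/Dp library follow from the filter: transcripts found in that genotype alone then reach 1 TPM in 2 libraries and are not tested. Asking for 2 libraries, chosen after seeing the data, kept dl-RA, Dif-RA, Rel-RC, spz-RA and spz-RB called in all 6 such fits. All of these but dl-RA again entered by being high in Myc+E2f/Dp, so those fits cannot show that their calls are stable.

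Same-numbered libraries did not deviate together in every pair (correlations of -0.161 to 0.515 between Myc+E2f/Dp and control), so the number was not taken as pairing. The replicate block gave 2, 3 and 2 members called in Myc+E2f/Dp, Yki*+Dp and YkiWT, and 6, 5 and 2 transcripts, all as without it. It changed 4 list counts: antimicrobial and Bomanin genes called, 3 in place of 2 in Myc+E2f/Dp and 7 in place of 8 in Yki*+Dp, and in YkiWT recognition and protease genes, 2 in place of 1, and Imd genes, 0 in place of 1. Depth is unknown, and values under 1 TPM carry the least weight.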
